A study of Mus musculus with 4 samples.

Results

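Matrix proteases and their inhibitors were followed in mouse liver tumours as 46 genes: 23 matrix metalloproteinases (MMPs), 4 tissue inhibitors of metalloproteinases (TIMPs) and 19 ADAMTS proteases. The set was defined by name, as every gene symbol made of Mmp, Timp or Adamts and a number. It was drawn up with earlier results of these data known. Each gene was read from its most abundant transcript. The tables hold 24063 gene symbols, so the members are 46 of 24063. Of these 46 genes, 41 had at least 1 read and 26 had a mean of at least 1 CPM (a gene's counts scaled to the size of its library), the level taken here as expressed. The other 20 lay below that level, 5 of them with no read in any tumour.

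The series holds poly-A RNA from 4 mouse tumours, numbered 1, 5, 9 and 10, with the strain given as C57BL/6 and, in the titles, C57BL6/J. All carry the mutation label MYC;PMEPA1. The growth label names hydrodynamic tail vein delivery, a rapid injection of plasmid in a large volume that reaches mainly hepatocytes, and the series describes the tumours as liver cancers that overexpress both genes. MYC is a growth-promoting transcription factor, and PMEPA1 is a membrane protein that TGF-beta induces and that restrains TGF-beta signalling. The labels say no treatment was given, list 8 to 10 passages, give no age, and do not tell whether the tumours came from separate animals, so the spread between them may be partly technical. All 4 libraries form 1 group without controls, and the values below describe differences between tumours only.

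MMPs are zinc-dependent enzymes that cut collagens, elastin, laminins and proteoglycans, and TIMPs block them by binding the active site. ADAMTS proteases are secreted relatives that cut proteoglycans such as versican, trim procollagens or process von Willebrand factor. In the liver, such enzymes and inhibitors are made largely by stellate cells, macrophages and infiltrating neutrophils as well as by hepatocytes, and they set how matrix is laid down and removed.

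Gene totals ranged from 41547938 to 51939623 counts, and 3 counts, the limit that a count of 0 allows, corresponded to 0.0524 to 0.0892 CPM. Counting intervals and these limits cover counting error only. All 10 hepatocyte markers were expressed in the tumours, with Alb at 4730, 4520, 5590 and 13400 CPM in tumours 1, 5, 9 and 10. Across all expressed genes the most alike libraries were tumours 1 and 5, with a Pearson correlation over genes of 0.955, while tumour 10 reached 0.847, 0.844 and 0.832 with tumours 1, 5 and 9. RNA of whole tumours cannot tell fewer cells of a type from less RNA per cell, which holds for every level below.

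By level per kilobase of transcript, the members were dominated by a few genes. Mmp14, a membrane-anchored collagenase that also activates pro-MMP2, was the highest of all 46 at 28.7 ± 9.46 CPM per kilobase (SD, n = 4). Mmp19, a secreted protease of basement membrane components, followed at 11.7 ± 2.54 CPM per kilobase. Next came Timp3, the matrix-bound inhibitor, at 7.36 ± 4.12, Timp2 at 4.89 ± 2.89 and the macrophage elastase Mmp12 at 4.80 ± 3.48 CPM per kilobase (SD, n = 4 each). Read within each tumour, Timp3 lay above Timp2 in all 4. Mmp12 changed place, above both in tumours 1 and 10 and below both in tumour 9, so its rank was not separated. Summed per kilobase over each family, MMP genes came to 57.5, 54.3, 73.8 and 44.6 in tumours 1, 5, 9 and 10. TIMP genes came to 7.87, 9.88, 25.6 and 26.6, and ADAMTS genes to 14.5, 11.2, 13.3 and 43.3. The MMP sum was highest in tumour 9 and lowest in tumour 10, the TIMP sum was high in both, and the ADAMTS sum stood apart in tumour 10.

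**Figure D1:**
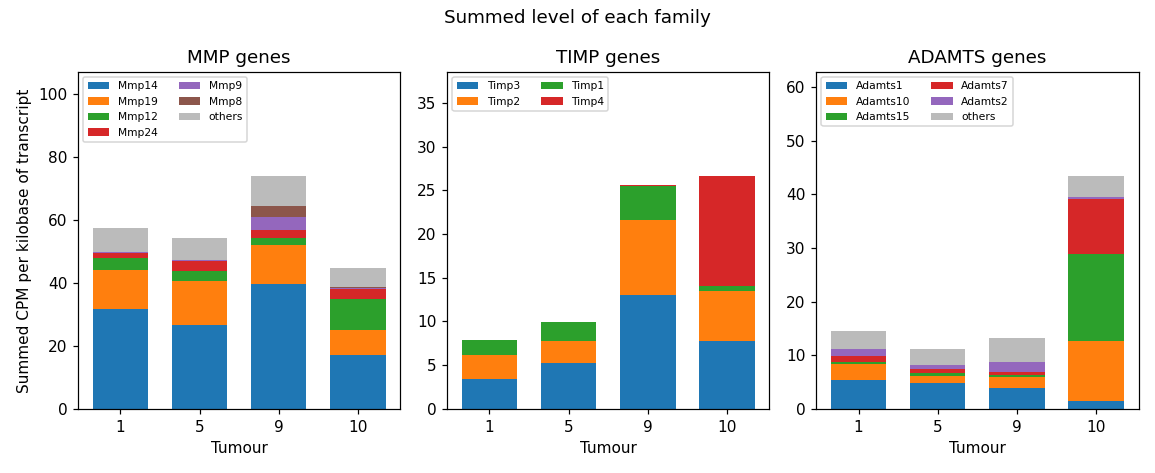
Bars stack the level of each gene in CPM per kilobase of transcript, by tumour, for the MMP, TIMP and ADAMTS families, each panel with its own axis from 0. Mmp14 makes up 55.2, 48.8, 53.6 and 38.2% of the MMP sum in tumours 1, 5, 9 and 10, and Timp4 makes up 47.0% of the TIMP sum in tumour 10 alone.

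The spread between tumours was wide among the members. All 26 expressed members varied beyond counting noise by a Poisson heterogeneity test with Benjamini-Hochberg adjustment over all expressed genes, but so did 98.7% of the 13129 expressed genes. The SD of log2 CPM over the 4 tumours was at least 1 for 15 of 26 members, or 57.7%, against 16.6% of all expressed genes, and its median was 1.02 against 0.45. Of these 26, Timp4 and Mmp9 had 1 CPM or more in a single tumour, Timp4 in tumour 10 and Mmp9 in tumour 9. In the mean, Mmp8, Mmp9 and Mmp25 passed 1 CPM only through tumour 9, and Timp4 only through tumour 10. For these members, all among the 15, the filter favoured a wide spread. Without tumour 9, 6 of 22 expressed members had an SD of at least 1, against 14.8% of all genes, and Mmp8, Mmp9, Mmp25 and Adamts14 were no longer expressed. Without tumour 10 it was 7 of 27, against 11.4%, and Timp4 dropped out. Without tumour 1 or tumour 5 it was 15 of 26 and 16 of 27, against 18.3% and 18% of all genes. Timp4 had the widest spread, an SD of 3.99 that 23 of 13129 expressed genes exceeded. It was followed by Adamts15 (2.50), Mmp9 (2.43), Mmp8 (1.91) and Adamts7 (1.88). At the other end, Adamts4 (0.33) and Mmp19 (0.35) were the steadiest.

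**Figure D2:**
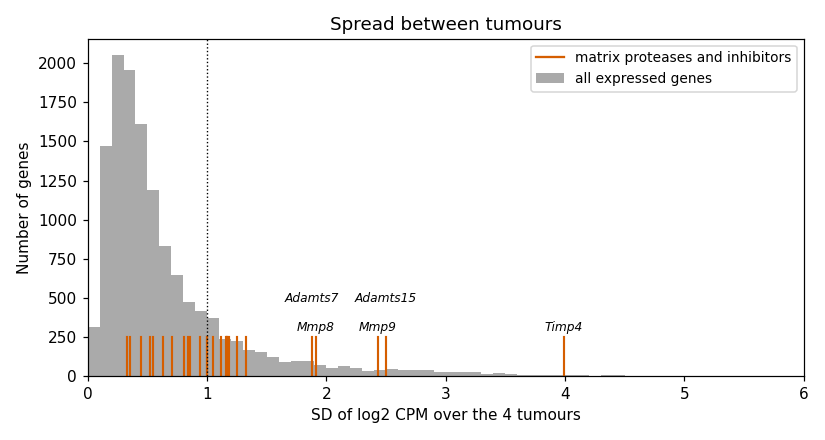
The grey bars count all 13129 expressed genes by the SD of log2 CPM over the 4 tumours, and each orange line marks 1 of the 26 expressed matrix proteases and inhibitors. The dotted line marks an SD of 1, which 15 of the 26 members and 16.6% of all genes reach, and Timp4 lies far to the right at 3.99. Among the 15, Mmp8, Mmp9, Mmp25 and Timp4 passed 1 CPM in the mean only through their highest tumour.

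Tumour 9 was the peak for many members. It held the highest value of 13 of 26 (50%), where 21.6% of all expressed genes peaked. Mmp8, Mmp9 and Mmp25 passed 1 CPM in the mean only through tumour 9: counting just genes that average 1 CPM or more in the other tumours, at the scaling of all 4 and as a count added after seeing the data, 10 of 23 members peaked there (43.5%), against 20% of all genes. Tumour 1 was the peak of 1 member, Adamts1, where 21.4% of all genes peaked, tumour 5 of 4, where 21.2% did, and tumour 10 of 8, where 35.8% did. With a margin of at least 2-fold over each other tumour, tumour 9 led for 4 members (5% of all genes), Adamts5, Mmp2, Mmp8 and Mmp9, and tumour 10 for 5 members (8.39% of all genes), Adamts7, Adamts10, Adamts15, Mmp12 and Timp4. Without tumour 10, 8 of 27 members led in tumour 9, Mmp25, Mmp27, Timp2 and Timp3 in addition, and 8.28% of all genes did. Of the members in these 2-fold counts, Mmp8, Mmp9 and Mmp25 passed 1 CPM in the mean only through tumour 9. Timp4 did so only through tumour 10, and for all of them the filter favoured a lead in that tumour. No member led by that margin in tumour 1 or tumour 5, where 1.03% and 1.23% of all genes did. On the low side, tumour 10 was lowest by at least 2-fold for 3 members (6.64% of all genes), tumour 5 for Adamts5 (1.41%) and tumour 9 for Mmp13 (2.7%), while tumour 1 was so for none (0.944%).

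**Figure D3:**
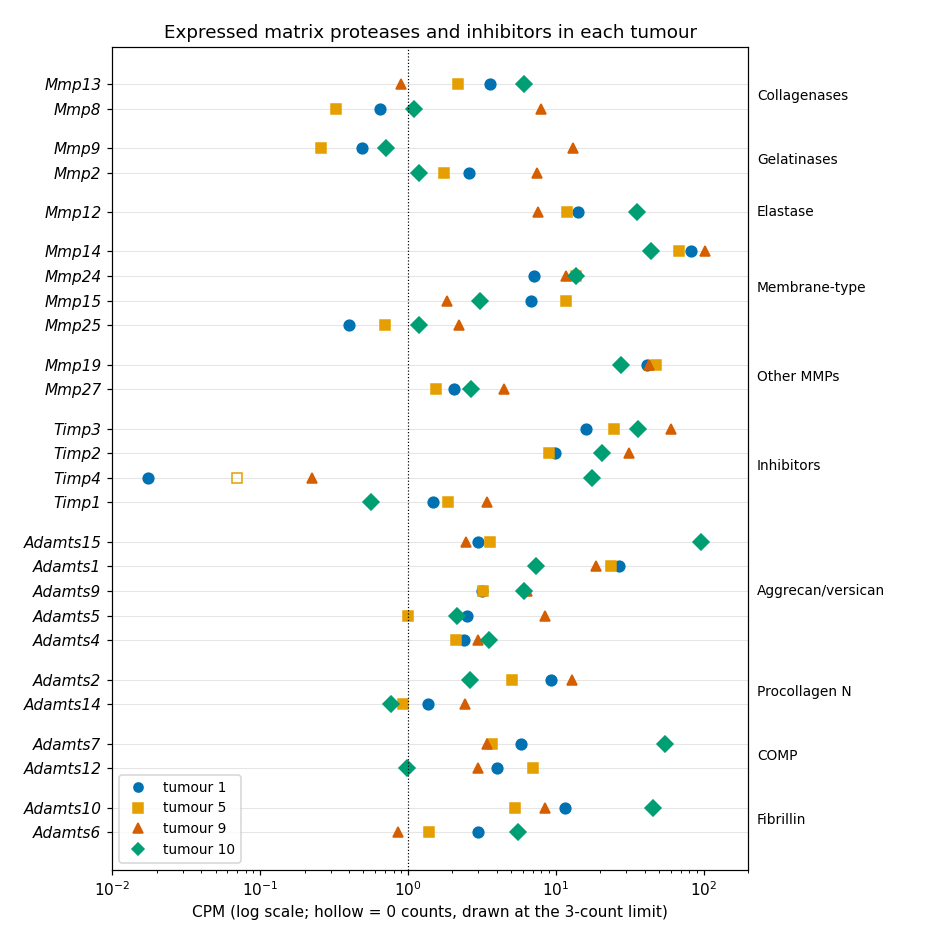
Each row is 1 of the 26 expressed members, grouped by role, and each point is its level in 1 tumour in CPM on a log axis. The hollow square marks the absence of counts for Timp4 in tumour 5, drawn at that library's limit of 0.07 CPM, and the dotted line marks 1 CPM.

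The gelatinases, which cut denatured collagen and basement membrane collagen, were highest in tumour 9. Mmp9, a gelatinase stored in neutrophil granules, had 0.489, 0.257, 13.1 and 0.714 CPM in tumours 1, 5, 9 and 10. Tumour 9 was 18.4 times the next tumour, with a 95% counting interval of 12.3 to 28.9, and only there did Mmp9 pass 1 CPM. It lies on chromosome 2, 164940780 to 164955850, plus strand (GRCm38, GENCODE M21, as for all positions of genes below). Mmp2, the gelatinase of fibroblasts, had 2.60, 1.75, 7.43 and 1.19 CPM, 2.85 times the next tumour (95% counting interval 2.36 to 3.47). For both genes tumour 9 stood above the other tumours, while the lowest value was in tumour 5 for Mmp9 and in tumour 10 for Mmp2. The next lowest tumour was 1.90 times higher for Mmp9 (95% counting interval 0.919 to 4.24) and 1.47 times for Mmp2 (0.99 to 2.22). In neither gene was the lowest tumour separated from it.

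Collagenases cut the triple helix of fibrillar collagens, and the expressed pair went opposite ways. Mmp8, the neutrophil collagenase, had 0.646, 0.327, 7.91 and 1.10 CPM in tumours 1, 5, 9 and 10, with tumour 9 at 7.19 times the next (95% counting interval 5.13 to 10.4). Mmp13, the main interstitial collagenase of rodents, had 3.62, 2.17, 0.893 and 6.15 CPM, so tumour 9 was its lowest and tumour 10 its highest. Mmp1a and Mmp1b, the rodent relatives of human interstitial collagenase, had no read in any tumour.

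Neutrophil markers moved with Mmp8 and Mmp9. All 10 of 10 markers were expressed and highest in tumour 9, where 21.6% of all expressed genes peaked. Their summed levels were 12.1, 13.8, 574 and 25.6 CPM in tumours 1, 5, 9 and 10. S100a9 and Ngp, a cytosolic and a granule protein of neutrophils, reached 140 and 115 CPM in tumour 9, where the other tumours had at most 6.78 and 3.33 CPM. Mmp25, a membrane-type MMP of leukocytes, had 0.402, 0.700, 2.21 and 1.19 CPM and was also highest there, by 1.86 times (95% counting interval 1.29 to 2.74). Macrophage and Kupffer cell markers summed to 274, 207, 931 and 384 CPM, with 6 of 9 highest in tumour 9, against 21.6% of all expressed genes. Among those 6, Cd5l, a secreted Kupffer cell protein, had 88.4, 68.0, 431 and 93.0 CPM and the complement gene C1qb had 37.6, 38.6, 140 and 79.2 CPM. The other 3, the Kupffer cell markers Clec4f, Vsig4 and Marco, named after their values were seen, were highest by at least 2-fold in tumour 1. Clec4f had 20.7, 2.99, 0.744 and 0.208 CPM, Vsig4 had 7.48, 2.12, 3.26 and 0.387 CPM, and Marco had 8.67, 1.07, 2.68 and 0.208 CPM. Mast cell and basophil genes summed to 23.8, 10.9, 40.8 and 3.30 CPM, and the mast cell proteases Mcpt4 and Cpa3, of which Cpa3 was named after its values were seen, reached 15.0 and 13.9 CPM in tumour 9 and at most 0.607 and 0.514 CPM in the others. Kit, a receptor of mast cells and other cells, had 23.6, 9.69, 8.78 and 2.59 CPM, highest in tumour 1. The part of these cells in the MMP levels was not tested.

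**Figure D4:**
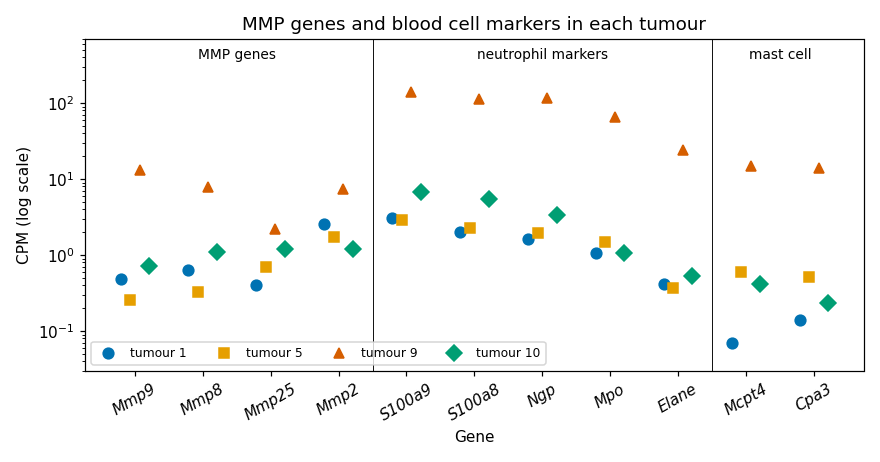
Points give the level in CPM on a log axis of 4 MMP genes, 5 neutrophil markers and 2 mast cell markers, by tumour. Tumour 9 is the highest point for every gene shown, from 2.21 CPM for Mmp25 to 140 CPM for S100a9.

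The MMP cluster of mouse chromosome 9 holds 10 members within about 420 kilobases, and its genes did not share 1 pattern. Its first genes, Mmp13 and Mmp12, were highest in tumour 10 and lowest in tumour 9. Mmp12 had 14.1, 11.9, 7.56 and 35.7 CPM in tumours 1, 5, 9 and 10, with tumour 10 at 2.52 times the next (95% counting interval 2.31 to 2.76). Farther along, Mmp8 and its neighbour Mmp27 were highest in tumour 9. Mmp27, a little-studied MMP, had 2.06, 1.56, 4.45 and 2.68 CPM.

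The weak genes of the cluster, named after their values were seen, also differed. The stromelysins Mmp3 and Mmp10, which activate other pro-MMPs, had 31 and 24 counts in tumour 9 and 5 and 2 counts in tumour 10, and none in tumours 1 and 5. Mmp7, the matrilysin of epithelial cells, had 33, 35 and 35 counts in tumours 1, 5 and 9 and none in tumour 10, a level of 0.577, 0.817 and 0.651 CPM against a limit of 0.0892 CPM. Tumour 10 was the highest for Mmp12 and Mmp13 and without a read for Mmp7 at the other end. Mmp20, an enamel protease, had at most 3 counts in any tumour.

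**Figure D5:**
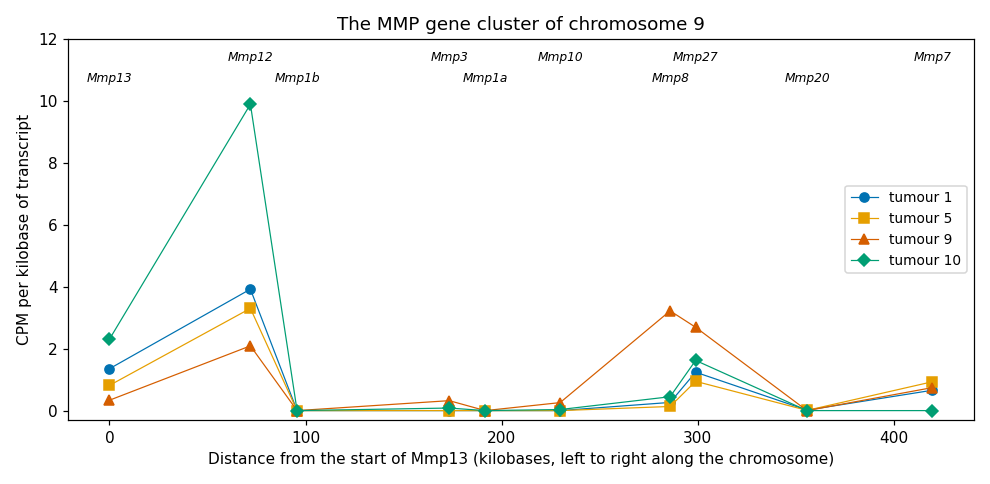
Lines join the level in CPM per kilobase of transcript of the 10 cluster genes in their order along the chromosome, by tumour, against the distance of each gene's lower coordinate from that of Mmp13 in kilobases. Tumour 10 is highest at Mmp12 with 9.89, tumour 9 at Mmp8 with 3.22, and Mmp1a and Mmp1b stay at 0 throughout.

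Several promoters of this cluster hold the letters of the site of AP-1, the Fos and Jun factor through which growth and stress signals are known to reach MMP genes. The sequences below are shown because the cluster genes behaved differently while many share those letters. They are the 120 bases before the start on the gene's own strand, from RefSeq on GRCm38.p6, and capitals mark TGAGTCA or its reverse complement TGACTCA.
Mmp13, chr9:7272394-7272513, plus strand: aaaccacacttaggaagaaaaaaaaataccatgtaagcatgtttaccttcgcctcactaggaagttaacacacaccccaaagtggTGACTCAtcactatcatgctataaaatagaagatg
Mmp12, second listed start, chr9:7347254-7347373, plus strand: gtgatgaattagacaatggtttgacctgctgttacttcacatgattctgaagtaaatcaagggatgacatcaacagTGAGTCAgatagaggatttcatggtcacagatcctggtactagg
Mmp3, chr9:7445702-7445821, plus strand: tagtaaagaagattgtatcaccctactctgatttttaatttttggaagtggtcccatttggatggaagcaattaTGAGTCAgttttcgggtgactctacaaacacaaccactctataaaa
Mmp10, chr9:7502222-7502341, plus strand: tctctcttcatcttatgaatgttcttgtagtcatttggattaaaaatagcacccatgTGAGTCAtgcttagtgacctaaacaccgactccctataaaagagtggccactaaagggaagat
Mmp7, first listed start, chr9:7691970-7692089, plus strand: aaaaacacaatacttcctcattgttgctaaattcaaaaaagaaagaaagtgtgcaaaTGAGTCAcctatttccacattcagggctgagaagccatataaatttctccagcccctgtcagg
Mmp8, chr9:7558309-7558428, plus strand: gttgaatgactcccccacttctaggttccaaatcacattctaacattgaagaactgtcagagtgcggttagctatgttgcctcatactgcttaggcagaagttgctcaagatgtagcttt
Mmp27, chr9:7571276-7571395, plus strand: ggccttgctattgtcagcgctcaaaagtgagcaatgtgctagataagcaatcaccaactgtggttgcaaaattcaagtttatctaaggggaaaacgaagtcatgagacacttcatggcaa

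Searching 250 bases before every listed start, with both letterings covering both strands, found a match in 7 of 10 cluster genes (70%), the 5 shown plus Mmp1a and Mmp1b. A match lay in 0 of the 22 other members that have a promoter sequence and in 5.16% of all 27025 genes. In Mmp12 only the second of its listed starts had one, and in Mmp7 only the first. Mmp8, Mmp27 and Mmp20 had no match in this window. Genes with a match included Mmp12, at a mean of 17.3 CPM, the weak Mmp3 and Mmp7, and Mmp1a without a read. Of 7 AP-1 genes 6 were expressed. Of these, 2 were highest in tumour 9: Fos had 9.17, 2.69, 23.4 and 10.8 CPM and Jun had 235, 55.5, 349 and 179 CPM in tumours 1, 5, 9 and 10. Fosb, with 2.46, 3.08, 7.80 and 12.7 CPM, and Fosl2, with 13.5, 13.8, 16.5 and 20.2 CPM, were highest in tumour 10. Junb had 79.9, 24.2, 78.0 and 55.4 CPM, highest in tumour 1, and Jund had 319, 415, 405 and 395 CPM, highest in tumour 5.

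Membrane-type MMPs sit on the cell surface, and their leading gene was highest in tumour 9. Mmp14 had 82.4, 68.8, 103 and 44.2 CPM in tumours 1, 5, 9 and 10, a range of 2.32-fold with tumour 10 lowest. Mmp24, a membrane-type MMP best known from neurons, had 7.13, 13.8, 11.8 and 13.7 CPM. On the opposite strand BC029722, which shares 637 exon bases with Mmp24, had 13.7, 28.3, 21.9 and 25.4 CPM, in the same order, and without strand the reads of the pair cannot be told apart. Mmp15, an epithelial membrane-type MMP, had 6.83, 11.7, 1.84 and 3.06 CPM, highest in tumour 5 and lowest in tumour 9. Mmp17 reached 1 CPM in tumour 1 alone (1.14 CPM), and Mmp16 had no read. Among the other MMPs, Mmp19 had 41.7, 47.7, 42.7 and 27.5 CPM, again lowest in tumour 10, and part of its exons is shared with Tmem198b on the opposite strand, which had 17.6 to 21.4 CPM. Mmp23, a short membrane-linked MMP, had 1.31, 0.537, 1.62 and 0.238 CPM.

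The 4 inhibitors split between tumours 9 and 10. Timp3 had 16.1, 24.8, 60.6 and 36.2 CPM in tumours 1, 5, 9 and 10, and Timp2, which also helps MMP14 to activate pro-MMP2, had 9.92, 8.99, 31.2 and 20.7 CPM. In both, tumours 9 and 10 lay above tumours 1 and 5. Timp3 shares 1733 exon bases with Syn3 on the other strand, which had 1.90, 4.58, 0.986 and 1.25 CPM. Timp1, a broad inhibitor that rises in liver fibrosis, was weak and had 1.49, 1.87, 3.44 and 0.565 CPM, with tumour 10 lowest: the next tumour was 2.63 times higher (95% counting interval 1.58 to 4.58).

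Timp4, an inhibitor best known from heart and fat tissue, was detected almost wholly in tumour 10. It had 1, 0, 12 and 594 counts in tumours 1, 5, 9 and 10, or 0.0175, 0, 0.223 and 17.7 CPM. The level in tumour 10 was 79.1 times that in tumour 9 (95% counting interval 44.9 to 154) and at least 252-fold higher than in tumour 5, taking the limit of 3 counts in that library. Timp4 passed 1 CPM through tumour 10 alone, so its place among the expressed members rests on that library. It lies on chromosome 6, 115241892 to 115252205, minus strand, and its exons share 90 bases with Syn2 on the other strand, which had 0.0874, 0.233, 0.503 and 2.65 CPM and was also highest in tumour 10. Reck, a membrane-bound MMP inhibitor outside these families, went the other way with 11.9, 9.01, 20.7 and 0.624 CPM.

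Among the ADAMTS proteases, 3 were far higher in tumour 10. Adamts15, a versican-cutting enzyme, had 2.97, 3.62, 2.46 and 95.6 CPM in tumours 1, 5, 9 and 10, or 170, 155, 132 and 3216 counts. Tumour 10 was 26.4 times the next tumour (95% counting interval 22.5 to 31.2), and the other tumours lay close together. Adamts15 lies on chromosome 9, 30899155 to 30922452, minus strand. Its neighbour Adamts8, named after its values were seen, which lies on the opposite strand of the same stretch of chromosome 9, had at most 0.279 CPM and its lowest value, 0.0297 CPM, in tumour 10.

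Adamts7, which cuts cartilage oligomeric matrix protein (COMP), had 5.80, 3.71, 3.44 and 55.3 CPM, with tumour 10 at 9.54 times the next (95% counting interval 8.48 to 10.8). It shares 122 exon bases with Tbc1d2b, which had its lowest value of 15.1 CPM in tumour 10. Adamts10, linked to fibrillin microfibrils, had 11.5, 5.32, 8.41 and 45.4 CPM, with tumour 10 at 3.96 times the next (95% counting interval 3.61 to 4.34). Adamts6, the close relative of Adamts10, had 2.99, 1.38, 0.856 and 5.59 CPM and was highest in tumour 10 too, by 1.87 times (95% counting interval 1.51 to 2.32). Most hepatocyte markers moved in the same direction: 8 of 10 were highest in tumour 10, against 35.8% of all expressed genes. Their summed levels were 17000, 18500, 24300 and 42200 CPM in tumours 1, 5, 9 and 10. The other markers, named after their values were seen, were Trf and Apoa1. Trf was lowest in tumour 10, with 4710, 5470, 5050 and 4110 CPM. Apoa1 was highest in tumour 9, with 2070, 3090, 5780 and 3010 CPM. Besides Alb above, Apoe, a lipoprotein gene, had 3140, 3250, 4770 and 10800 CPM. Tdo2, a tryptophan-degrading enzyme named after its values were seen, had 29.0, 2.22, 2.77 and 1590 CPM. The part of hepatocytes in the ADAMTS levels was not tested.

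Other ADAMTS genes were lowest in tumour 10. Adamts1, an aggrecan- and versican-cutting enzyme, had 26.7, 23.5, 18.7 and 7.31 CPM in tumours 1, 5, 9 and 10, and tumour 9, the next lowest, was 2.56 times higher than tumour 10 (95% counting interval 2.22 to 2.95). Adamts12, which like Adamts7 cuts COMP, had 4.0, 6.98, 2.96 and 0.981 CPM, the reverse of its relative in tumour 10. The procollagen N-proteinases, which trim collagen before fibrils form, followed the same course. Adamts2 had 9.28, 5.09, 12.8 and 2.62 CPM and Adamts14 had 1.36, 0.934, 2.44 and 0.773 CPM, both highest in tumour 9 and lowest in tumour 10. For Adamts14, tumour 5 was 1.21 times tumour 10 (95% counting interval 0.719 to 2.06), so their order was not separated. Adamts13, the protease of von Willebrand factor made by stellate cells in the liver, stayed below a mean of 1 CPM, with 1.10, 0.514, 1.64 and 0.119 CPM.

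Stellate cell and fibroblast markers were lowest in tumour 10 for 10 of 10 genes. Their summed level was 423, 295, 514 and 113 CPM in tumours 1, 5, 9 and 10, and Col3a1 and Col1a2, fibrillar collagen chains, had 135, 101, 157 and 31.9 CPM and 96.9, 76.5, 137 and 29.7 CPM. The share of members at their lowest in tumour 10 was near that of all genes: 8 of 26 (30.8%) were lowest in tumour 10, against 32.4% of all expressed genes. These were Adamts1, Adamts2, Adamts12, Adamts14, Mmp2, Mmp14, Mmp19 and Timp1, of which Adamts14 and Mmp2 were not separated from the next lowest tumour. The part of stellate cells and fibroblasts in the levels of these genes was not tested.

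The remaining proteoglycan-cutting ADAMTS genes differed in pattern. Adamts5, the main aggrecan-cutting enzyme of mouse cartilage, had 2.52, 1.0, 8.49 and 2.14 CPM, with tumour 9 at 3.37 times the next (95% counting interval 2.79 to 4.10), although it lies beside Adamts1 on chromosome 16. Adamts9 had 3.16, 3.22, 6.40 and 6.10 CPM, with tumours 9 and 10 above tumours 1 and 5. Adamts4 had 2.38, 2.12, 3.0 and 3.54 CPM, highest in tumour 10. Adamts18 and Adamts19 had no read, and the members under 1 CPM had means of 0.00465 to 0.926 CPM.

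Other genes of matrix turnover, a list of 36 written with earlier results known, were counted in the same way. Of 31 expressed, 10 (32.3%) had an SD of at least 1, against 16.6% of all expressed genes, with a median SD of 0.70 against 0.45. The highest per kilobase were the lysosomal protease Ctsl with 354, 464, 643 and 963 CPM in tumours 1, 5, 9 and 10, Bsg, a surface inducer of MMPs, with 414, 391, 416 and 867 CPM, and Ctsd with 287, 418, 865 and 708 CPM. Papln, an ADAMTS-like matrix protein, had the largest SD, with 43.2, 31.2, 33.7 and 1.01 CPM, and Reck the next. Of 17 substrate genes, some of which are also fibroblast markers, 14 were expressed. Of these, 12 (85.7%) were highest in tumour 9, against 21.6% of all expressed genes. Fn1, fibronectin, was an exception with 327, 207, 387 and 489 CPM, as was Lama5, a laminin chain, with 82.0, 32.5, 85.1 and 196 CPM. Col4a1, a basement membrane collagen, had 161, 255, 263 and 146 CPM, and the collagen-binding proteoglycan Dcn had 30.4, 13.8, 61.2 and 6.33 CPM.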

How the data were processed

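RNA of 4 tumours was measured. Per the labels' protocols, it was extracted with Trizol, treated with DNase, poly-A selected and made into TruSeq libraries. The submitters' processing notes list FastQC 0.11.8 and the build GRCm38. An aligner, a counter or a strand setting is not given in the sources used here. The deposited counts are whole reads per RefSeq transcript row, 33984 rows in each file. The deposited FPKM, so named per the file headers, together with the counts gave transcript lengths, whole to 0.01 bases in 100% of rows with reads. The deposited TPM, so named per the file headers, was not used further. Rows of a gene share reads, so the row with the highest mean count stood for each gene.

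Counts were scaled by TMM in edgeR 4.0.16 (R 4.3.3), with a prior count of 2 for log2 CPM. Each gene's counts were tested against Poisson noise by a heterogeneity chi-square, adjusted by Benjamini-Hochberg over all 13129 expressed genes, at 0.05. The procedure was tested on simulated Poisson counts. That is the model the test assumes, so the simulation cannot show how the test handles other variation between libraries. Intervals of ratios between 2 libraries are exact binomial intervals at 95%. A gene counted as lowest by 2-fold only where each other tumour had more than 3 counts. Genes were placed with GENCODE M21. Promoter sequences were matched by symbol for 32 of 46 members. Of the members, 13 share exon bases with a gene on the opposite strand, and strand use is not given. Every expressed member is named with its values, as are weaker members at 1 CPM in a single tumour or at 0 in all. Of the lists of other protease genes and of substrates, the 3 highest per kilobase and the 2 with the largest SD are named, of marker lists the 2 highest, and all expressed AP-1 genes, the last outside the rule. The members and lists were chosen with earlier results of these data known. Of the 10 macrophage and Kupffer cell markers, 9 have a row. T cell markers (2 of 6 expressed), endothelial markers (9 of 10), cholangiocyte markers (6 of 8) and pancreatic acinar markers (1 of 4) were also measured, with summed levels of 9.72 to 16.2, 109 to 180, 37.0 to 105 and 5.11 to 19.5 CPM. Scaling by total counts alone, DESeq2 1.42.0 size factors, other filters and leaving out each tumour were tried.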

Additional observations from a re-analysis of the deposited data

Results flagged for a closer look

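In 7 of 29 sets of 4 tumour values, 1 tumour lay far from the others by Dixon's ratio of its gap to the range, past Dixon's critical value. Normally distributed values pass it in about 1 set in 20, but CPM need not be so distributed. The share of all genes is therefore the comparison used here. Among single genes, 1 tumour lay apart in this way for 6 of 26 members (23.1%), against 1611 of 13129 expressed genes (12.3%). Of those 6 members, Mmp8 and Mmp9 passed 1 CPM in the mean only through tumour 9, and Timp4 only through tumour 10. Their place among the 26 was therefore not independent of the gap. Tumour 10 lay apart for Adamts15 (0.988), Timp4 (0.987), Adamts7 (0.955), Adamts10 (0.847) and the summed CPM per kilobase of the ADAMTS genes (0.898), which holds the same genes. Tumour 9 lay apart for Mmp9 (0.965) and Mmp8 (0.898). The ratios were taken on CPM.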

How the results depend on the processing

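All 26 expressed members stayed beyond counting noise under DESeq2 size factors and total counts. Leaving out a tumour gave 22 to 27, which was every expressed member of each run. In the main setting 98.7% of all expressed genes passed too, so these counts do not set the members apart. With genes of at least 10 counts in total admitted, 25 of 38 members had an SD of at least 1 (22.2% of all genes), and those highest by 2-fold numbered 1 in tumour 1 (2.33%), 2 in tumour 5 (2.08%) and 7 in tumour 9 (8.17%). Scaling to total counts moved the median of all genes by 0.14, 0.04, 0.13 and -0.32 (log2) in tumours 1, 5, 9 and 10, put the highest value of Adamts4 in tumour 9 and the lowest of Adamts9 in tumour 5, and gave 8 of 26 members highest by 2-fold in tumour 9, against 6.31% of all genes. Those 8 include Mmp8, Mmp9 and Mmp25, which in the main setting passed 1 CPM in the mean only through tumour 9. Summing all rows gave an MMP level of 59.5 CPM per kilobase in tumour 9, and a mean log2 CPM of 0.91 for Adamts4, 5.60 for Mmp14, 5.74 for Mmp19 and 2.94 for Mmp24, with library totals 1.434 to 1.487 times larger by construction. Leaving out 1 tumour gave 6 to 16 of 22 to 27 members with an SD of at least 1, against 11.4 to 18.3% of all genes. Highest by 2-fold were 0 to 1 member in tumour 1, 0 to 2 in tumour 5, 5 to 8 in tumour 9 and 5 to 7 in tumour 10. Without tumour 10, the shares of all genes were 1.93, 1.98 and 8.28% in tumours 1, 5 and 9. For the other runs these shares were not computed, so those 2-fold counts have no background beside them. Of 165 values recomputed with all 4 tumours under other settings, 155 stayed within the SD between tumours or, for counts, within 1.5 times the count. Directions were not part of this check. Of the 165, 104 were mean log2 CPM of single members, where that SD reached 3.99 (Timp4), a loose limit. No paired analysis was possible because there is 1 group. Members under 1 CPM rest on few counts.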
